A study of Mus musculus with 8 samples.

Results

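Spock2, the heparin-binding cytokine pleiotrophin and a set of heparan sulfate proteoglycans were followed in RNA of sorted mouse Paneth cells. The set holds 10 genes of the 53801 in the count table: Spock1 and Spock2 (testicans), Ptn and Mdk (pleiotrophin and midkine), Sdc1, Sdc2 and Sdc4 (syndecans), Gpc1 (a glypican), Agrn (agrin) and Hspg2 (perlecan). They were found by gene symbol, and the list was chosen by what was already known of the same 4 knockouts and 4 controls. Their differences between the genotypes are therefore given as values with no p-value, and the count of those that passed the limits of the fit over all genes is a description only.

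Heparan sulfate proteoglycans are core proteins that carry long sulfated sugar chains. Syndecans span the membrane and glypicans are held to it by a lipid anchor, whereas agrin and perlecan are laid down in the basement membrane. The chains bind growth factors, Wnt proteins among them, and the pattern of sulfate groups sets what they bind. Pleiotrophin and midkine are small secreted cytokines that bind these chains and act through receptors such as the phosphatase Ptprz1. Testicans are secreted relatives of SPARC that can carry heparan or chondroitin sulfate. In the intestine, Paneth cells sit at the crypt base, make antimicrobial proteins and supply Wnt signals to the neighbouring stem cells.

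The labels give only the Mll1 genotype, and the background of the mice is known from the study's text. There the sorted Paneth cells come from β-cat GOF mice, which carry Lgr5-EGFP-IRES-CreERT2 and a β-catenin allele that is stabilized by loss of an exon after induction. The methods for sorting, however, name the Cre and floxed Mll1 alleles without the β-catenin allele. Controls were also Mll1+/- and knockouts Mll1-/-, so recombined control cells had also lost 1 copy of Mll1 (Kmt2a), a histone H3 lysine methyltransferase. Recombination was induced with 3 injections of 1 mg tamoxifen as the labels give it, while the methods give a dose by body weight. Small intestinal cells positive for EpCAM and CD24 were sorted on day 10. Cre was driven from the Lgr5 promoter, which recombines crypts in a mosaic. The mice were a few weeks old at induction.

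The libraries held 13037832 to 14380240 counts. They fall into 2 library sets by runs of label numbers, each with 2 controls and 2 knockouts. Paneth markers summed to between 42940 and 181300 normalized CPM (counts scaled to library size and TMM factor), and Epcam was at 268.7 to 295.2 CPM in controls and 210.1 to 299.8 in knockouts. The total count of Kmt2a did not separate the genotypes: it was at 45.07, 37.21, 24.05 and 22.42 CPM in controls 1 to 4 and at 31.07, 25.67, 38.53 and 28.39 in knockouts 1 to 4. A gene total does not show whether the floxed exons are present, and the study's own check by staining for the Mll1 protein was not analysed here. Knockout 3 stood apart, with 19662 genes with a count against 22623 to 26074 in the other libraries and a TMM factor of 0.6323. In bulk samples fewer cells of a type and less RNA per cell cannot be told apart.

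Spock2 (ENSMUSG00000058297, mm10 chr10:60106219-60135198, plus strand) was close to absent in controls and present in all knockouts. Its counts were 16, 7, 3 and 6 in controls 1 to 4 and 609, 505, 142 and 313 in knockouts 1 to 4. The 4 knockouts all lay far above the 4 controls, and the lowest of them was the library with the fewest detected genes. On the normalized scale, Spock2 was at 0.575 ± 0.309 CPM (SD, n = 4) in controls and 25.2 ± 9.06 CPM (SD, n = 4) in knockouts, a log2 fold change of 5.39 (SE 0.40) or 41.8-fold. It ranked 5 of 13439 tested genes when these were ordered by fitted rise. It reached the filter on low counts through the knockouts, so that it had to differ once it was tested.

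Ptn (ENSMUSG00000029838, mm10 chr6:36714929-36810220, minus strand) was present in every control and higher in every knockout. Its counts were 101, 99, 110 and 96 in controls 1 to 4 and 859, 775, 300 and 463 in knockouts 1 to 4. The controls lay between 96 and 110 counts, and the lowest knockout was at 300. After normalization Ptn was at 7.91 ± 1.47 CPM (SD, n = 4) in controls and 39.7 ± 10.1 CPM (SD, n = 4) in knockouts, a log2 fold change of 2.33 (SE 0.23) or 5.03-fold.

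Spock2 and Ptn were the pair that moved together, and the mice of both genotypes are described as β-cat GOF. TCF/LEF factors, the DNA-binding partners of β-catenin, recognize the letters CTTTGA. The sequence before each start is shown for this reason, and a link of either gene to β-catenin was not tested. Sequences are from RefSeq (GRCm38.p6), 5′ to 3′ on the strand of the gene, and end where the counted gene begins. Capitals mark a CTTTGA match on either strand.
Spock2, chr10:60106007-60106218, plus strand: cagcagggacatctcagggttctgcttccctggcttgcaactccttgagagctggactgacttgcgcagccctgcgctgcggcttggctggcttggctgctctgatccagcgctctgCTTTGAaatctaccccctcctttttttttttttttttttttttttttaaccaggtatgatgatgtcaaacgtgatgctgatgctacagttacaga
Ptn, chr6:36810221-36810429, minus strand: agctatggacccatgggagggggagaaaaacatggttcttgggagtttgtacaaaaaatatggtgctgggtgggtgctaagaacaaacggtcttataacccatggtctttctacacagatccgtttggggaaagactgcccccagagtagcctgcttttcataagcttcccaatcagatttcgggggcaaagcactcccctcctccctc

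Within 250 bases before the RefSeq start, Spock2 held 1 CTTTGA, at chr10:60106124-60106129 and beginning 133 bases before that start, and Ptn held none. The same letters, searched on both strands, were in 13.8% of 32851 RefSeq promoters of that length. A RefSeq promoter was found for 7 of the 10 genes (not for Mdk, Sdc2 and Gpc1), and CTTTGA was absent from the windows of Spock1, Sdc1, Sdc4, Agrn and Hspg2. These windows also differed in their CpG dinucleotides, the sites where promoters can be methylated. Spock2 had 7 and Ptn 5, near the median of 6 over all promoters. Sdc1 had 10, Sdc4 19, Spock1 and Hspg2 20 each, and the 2 starts of Agrn 35 and 8. A match is a run of letters and not a measured binding site.

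The other testican and the other cytokine gave no clear difference in either direction. Spock1 (ENSMUSG00000056222) had 2, 4, 8 and 2 counts in controls 1 to 4 and 1, 0, 2 and 24 in knockouts 1 to 4, so that a single library, knockout 4, held most of its reads. It was too low to be tested. Mdk (ENSMUSG00000027239), the relative of Ptn, had 5, 31, 25 and 9 counts in controls and 82, 36, 14 and 34 in knockouts. On the CPM scale the groups overlapped, at 1.43 ± 1.08 (SD, n = 4) in controls and 2.66 ± 1.49 (SD, n = 4) in knockouts. The log2 fold change of Mdk was 0.92 (SE 0.62) and ran from 0.45 without knockout 1 to 1.32 without control 2, with 1.36 by limma-voom.

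**Figure D1:**
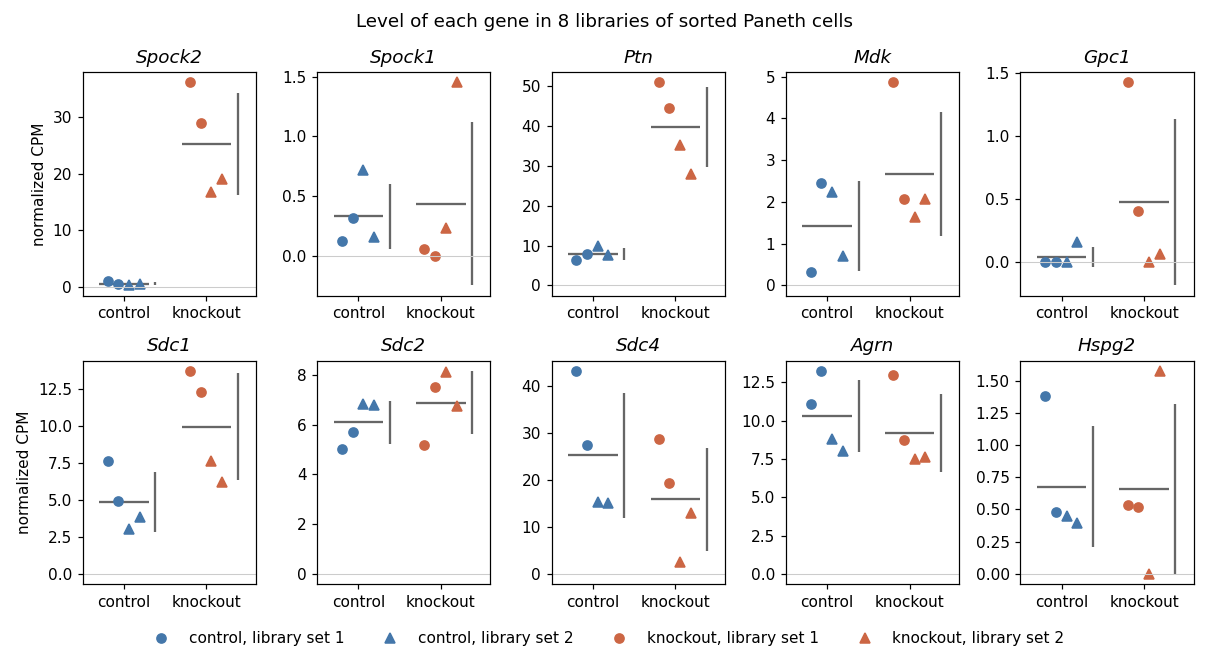
Normalized CPM (y axis, linear, own scale per gene) of each of the 10 genes in 4 control and 4 knockout libraries; circles and triangles mark the 2 library sets, horizontal lines the mean and vertical lines 1 SD either side. The 4 knockouts sit between 16.68 and 36.17 CPM for Spock2 and between 28.08 and 51.02 CPM for Ptn, all above the controls, while the groups overlap for the other genes.

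Among the membrane proteoglycans, none of the syndecans separated the genotypes. Sdc1 (ENSMUSG00000020592), the main epithelial syndecan, had 122, 62, 34 and 49 counts in controls 1 to 4 and 231, 214, 65 and 102 in knockouts 1 to 4. In CPM it was at 7.647, 4.919, 3.051 and 3.867 in controls and at 13.72, 12.29, 7.635 and 6.187 in knockouts. Control 1 reached into the range of the knockouts, and the other 3 controls lay below it. Within each library set both knockouts lay above both controls, and Sdc1 was not called with library set as a block. The log2 fold change of Sdc1 was 1.03 (SE 0.35), and leaving out 1 library at a time gave 0.84 to 1.34.

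Sdc4 (ENSMUSG00000017009), a syndecan of focal adhesions, was the most variable gene of the set. It was at 43.25, 27.45, 15.35 and 15.08 CPM in controls 1 to 4 and at 28.69, 19.29, 2.702 and 13.04 CPM in knockouts 1 to 4. The groups overlapped widely, and knockout 3 was far below the rest with 23 counts. The SD of Sdc4 on the log2(CPM + 1) scale was larger than that of 96.3% of tested genes among controls and 98.9% among knockouts. Its log2 fold change was -0.66 (SE 0.54), and ran from -1.09 without knockout 1 to -0.26 without control 1, with -0.13 by limma-voom.

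Sdc2 (ENSMUSG00000022261) was steady by comparison. It had 72 to 86 counts in controls and 69 to 131 in knockouts, which gave 6.08 ± 0.879 CPM (SD, n = 4) and 6.88 ± 1.27 CPM (SD, n = 4). The groups overlapped, with a log2 fold change of 0.18 (SE 0.25). Gpc1 (ENSMUSG00000034220), the glypican, had 0, 0, 0 and 2 counts in controls 1 to 4 and 24, 7, 0 and 1 in knockouts 1 to 4, and was not tested. Its reads came mostly from knockout 1. Of its exon bases 18.9% are shared with Ankmy1 on the opposite strand, which had at most 1 count in any library. None of the other 9 genes shares exon bases with another gene.

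The basement membrane proteoglycans did not separate the genotypes. Agrn (ENSMUSG00000041936) was at 11.09, 13.25, 8.795 and 8.051 CPM in controls 1 to 4 and at 12.95, 8.728, 7.518 and 7.643 CPM in knockouts 1 to 4. These ranges overlapped almost whole, with a log2 fold change of -0.16 (SE 0.26). Hspg2 (ENSMUSG00000028763) had 22, 6, 5 and 5 counts in controls and 9, 9, 0 and 26 in knockouts and was not tested.

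Of the 10 genes, 7 passed the filter on low counts and 2 of these, Spock2 and Ptn, passed an adjusted p of 0.05 with a log2 fold change of at least 0.5 (edgeR quasi-likelihood test). Over all 13439 tested genes 0.186% passed both limits, 21 higher and 4 lower in knockouts. At a false discovery rate of 10% with no limit on the fold the members called were the same 2, beside 0.283% of all tested genes. In 2 of the 7 every knockout was above every control, beside 2.59% of tested genes. Since the genes were selected on this contrast, nothing is read from these shares.

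Levels of different genes were compared per kilobase of exon. In controls Sdc4 led with a mean of 9.93 CPM per kilobase, followed by Ptn at 2.30, Sdc2 at 1.73, Sdc1 at 1.28, Agrn at 1.11 and Mdk at 1.08. Spock2 came next at 0.104, ahead of Hspg2, Spock1 and Gpc1, which were all below 0.05. Among neighbours in this order the ranges over libraries were apart for Sdc4 and Ptn and for Mdk and Spock2, and overlapped for all others.

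In knockouts the order began with Ptn at 11.6 CPM per kilobase, Sdc4 at 6.26 and Spock2 at 4.56. Sdc1 at 2.61, Mdk at 2.01, Sdc2 at 1.95 and Agrn at 0.992 came next, and Gpc1 at 0.0915, Spock1 at 0.0523 and Hspg2 at 0.0459 closed it. The ranges of Sdc2 and Agrn and those of Agrn and Gpc1 were apart, and the other neighbours overlapped. Set against all tested genes by per-length level, Spock2 stood above 1.14% of them in controls and above 77.9% in knockouts, and Ptn above 63.2% and 90.2%. Spock2 is among the tested genes through its knockouts, so its low place in controls follows in part from the filter.

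**Figure D2:**
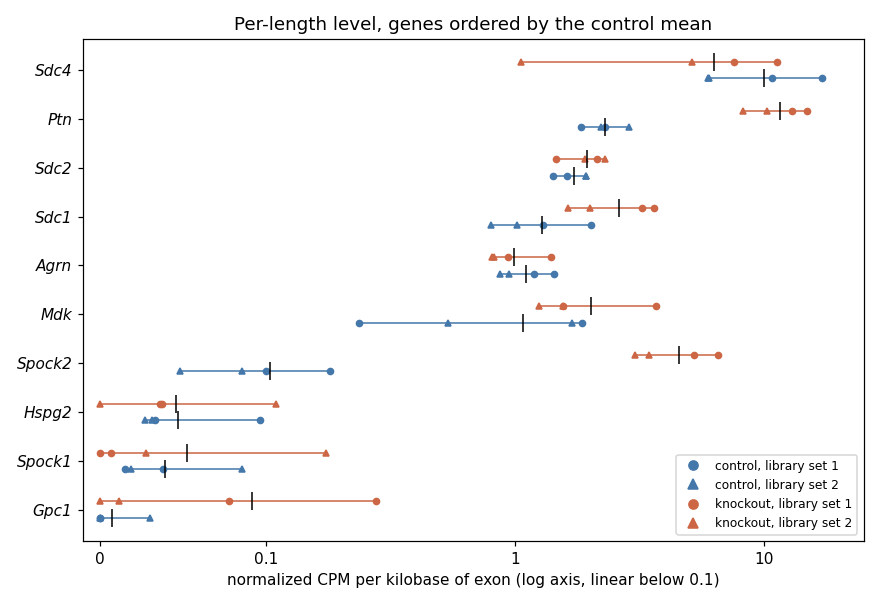
Normalized CPM per kilobase of exon (x axis, logarithmic above 0.1 and linear below) for the 10 genes, ordered by the control mean; points are libraries, lines their range and black ticks the group mean. Spock2 moves from 0.104 in controls to 4.56 in knockouts, whereas Sdc2 has means of 1.73 and 1.95.

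The 2 library sets gave a comparison that the choice of genes did not use. Spock2 was lower in the second set within both genotypes, at 36.17 and 29.0 CPM in knockouts 1 and 2 and 16.68 and 18.99 CPM in knockouts 3 and 4. In controls 1 and 2 it was at 1.003 and 0.5554 CPM and in controls 3 and 4 at 0.2692 and 0.4736. Fitted beside genotype, the log2 difference of the second set over the first was -0.92 (SE 0.25, adjusted p = 0.284).

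Sdc1 and Sdc4 shared this order. Sdc1 differed by -0.89 (SE 0.24, adjusted p = 0.284) and Sdc4 by -1.39 (SE 0.37, adjusted p = 0.278), both on the log2 scale, and in each genotype both libraries of the first set were above both of the second. Agrn differed by -0.52 (SE 0.21, adjusted p = 0.440), Ptn by -0.18 (SE 0.22, adjusted p = 0.819) and Mdk by -0.42 (SE 0.64, adjusted p = 0.850). Sdc2 was the 1 tested gene of the set with a positive difference, 0.28 (SE 0.24, adjusted p = 0.719). By edgeR's quasi-likelihood test 0 of the 7 passed, and over all genes 0.0967% passed. At an unadjusted p under 0.05 there were 4 of the 7, beside 10.1% of all tested genes. DESeq2's Wald test called 1, Sdc4, beside 1.39% of all tested genes.

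The genotype difference within each set was taken as the log2 ratio of the knockout mean to the control mean, with 1 added to each mean CPM. For Spock2 it was 4.24 in the first and 3.78 in the second, and for Ptn 2.59 and 1.75. The added 1 shrinks the values of Spock2, whose controls lay at 0.2692 to 1.003 CPM. Its 2 values can therefore not be ranked or set beside its fitted log2 fold change. Sdc1 gave 0.94 and 0.83, Sdc4 -0.54 and -0.87, Mdk 0.91 and 0.20, Sdc2 0.21 and 0.11 and Agrn -0.15 and -0.14. These 7 tested genes kept their sign. The 3 untested genes did not, with -0.25 and 0.36 for Spock1, 0.94 and -0.07 for Gpc1 and -0.34 and 0.33 for Hspg2. The values have 2 libraries of each genotype behind them in each set and no test. The TMM factors also differed by set, at 0.9146 to 1.336 in the first and 0.6323 to 1.216 in the second, and their part in the values was not tested.

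**Figure D3:**
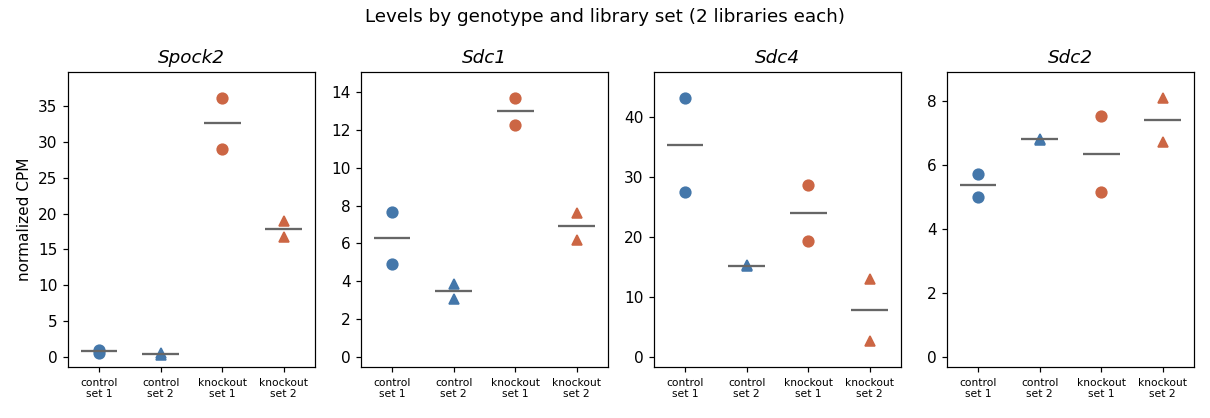
Normalized CPM (y axis, linear) of Spock2, Sdc1, Sdc4 and Sdc2 by genotype and library set, with 2 libraries at each position and a line at their mean. Spock2, Sdc1 and Sdc4 are lower in set 2 within both genotypes (Sdc4 15.35 and 15.08 against 43.25 and 27.45 CPM in controls), and Sdc2 is not.

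The genes whose pattern over the 8 libraries was most like that of Spock2 were Notum (Pearson's r = 0.984 on log2(CPM + 1)), Nkd1 (r = 0.981), Flt1 (r = 0.980), Prss56 (r = 0.979) and Ptn (r = 0.973). For Ptn they were Nkd1 (r = 0.987), Notum (r = 0.987), S100a6 (r = 0.983), Prss56 (r = 0.975) and Spock2. Notum, a secreted enzyme that removes the lipid from Wnt proteins and binds glypicans, was at 0.579 ± 0.308 CPM (SD, n = 4) in controls and 16.96 ± 5.11 CPM (SD, n = 4) in knockouts. Nkd1, an intracellular inhibitor of Wnt signalling, was at 6.34 ± 1.22 CPM (SD, n = 4) and 38.3 ± 6.51 CPM (SD, n = 4). Prss56, a serine protease, was at 0 in every control and at 11.95 to 23.61 CPM in knockouts. Flt1, a VEGF receptor, was at 0.125 ± 0.106 CPM (SD, n = 4) in controls and 2.94 ± 0.809 CPM (SD, n = 4) in knockouts, and S100a6, a calcium-binding protein, at 5.78 ± 3.12 CPM (SD, n = 4) and 131 ± 41.2 CPM (SD, n = 4). For each gene named here the control and knockout ranges were apart, which was not shown for the libraries as a whole. The correlations therefore mostly restate the genotype difference and describe likeness over 8 points.

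Genes that make, carry, read or trim heparan sulfate were taken from 7 lists drawn by role, with 92 genes in the table and 55 tested. None passed both limits or a false discovery rate of 10% by edgeR's quasi-likelihood test, whereas 9 had an unadjusted p under 0.05, 6 higher and 3 lower, beside 6.88% of all tested genes (584 higher and 340 lower). The median log2 fold change of the 55 was 0.18, beside 0.01 over all tested genes.

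In the SPARC family, 2 of 6 genes were tested and both had negative values. Smoc2, a matricellular protein and marker of intestinal stem cells, was at 54.4 ± 5.38 CPM (SD, n = 4) in controls and 52.6 ± 3.97 CPM (SD, n = 4) in knockouts. Fstl1 had a log2 fold change of -0.56 (SE 0.35).

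Of the other heparan sulfate carriers 4 of 10 were tested, 3 with positive values and a median of 0.51 on the log2 scale. Gpc4, a glypican, was at 3.259, 3.094, 6.103 and 4.894 CPM in controls 1 to 4 and at 9.088, 6.431, 7.87 and 6.975 CPM in knockouts 1 to 4. Every knockout was above every control, with a log2 fold change of 0.81 (SE 0.29, adjusted p = 0.562). Cd44, a hyaluronan receptor with a heparan sulfate isoform, gave 0.20 (SE 0.20). Col18a1, the basement membrane collagen that yields endostatin, gave 1.17 (SE 0.60, adjusted p = 0.788).

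Among the partners of pleiotrophin and midkine 8 of 11 were tested, with a median of 0.20. Itgav, the integrin αv chain, was at 5.516, 4.126, 6.282 and 5.92 CPM in controls 1 to 4 and at 8.375, 8.039, 13.16 and 10.86 CPM in knockouts 1 to 4. The groups did not overlap, and the log2 fold change was 0.88 (SE 0.26, adjusted p = 0.390). Itga4, the integrin α4 chain, went the other way with -1.70 (SE 0.68, adjusted p = 0.658) at 0.17 to 4.40 CPM. Itga4 was highest in control 3, with the other controls at 1.03 to 1.51 CPM, and its value ran from -2.20 to -1.01 over the settings. Of its exon bases 8.0% are shared with Cerkl on the opposite strand, which had 39 to 72 counts, and the reads of the pair cannot be told apart where strand was not counted. Ncl (nucleolin), the most abundant of the list, and Itga6 had log2 fold changes of 0.22 (SE 0.20) and 0.19 (SE 0.24). Ptprz1, the receptor phosphatase for pleiotrophin, was too low to be tested, with 8, 1, 2 and 0 counts in controls and 37, 12, 28 and 1 in knockouts. It was chosen after its values were seen.

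The enzymes that build the linker and the sugar backbone were tested for 11 of 12 genes, 6 positive and 5 negative, with a median of 0.04. Ext1, a polymerase of the backbone, was at 5.34 ± 1.12 CPM (SD, n = 4) in controls and 9.16 ± 3.18 CPM (SD, n = 4) in knockouts, with a log2 fold change of 0.78 (SE 0.30, adjusted p = 0.606). Extl2 gave 0.78 (SE 0.49) and Fam20b, the kinase of the linker xylose, 0.27 (SE 0.24).

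Sulfation and precursor genes were tested for 16 of 24, 10 positive and 6 negative, with a median of 0.06. Slc26a2, a sulfate transporter, was at 43.31, 35.39, 25.76 and 25.1 CPM in controls 1 to 4 and at 21.5, 21.25, 11.16 and 24.32 CPM in knockouts 1 to 4. Every knockout was below every control, by a narrow margin, with a log2 fold change of -0.72 (SE 0.26, adjusted p = 0.569). Ugdh, which makes the UDP-glucuronate used by the backbone, gave 0.67 (SE 0.22, adjusted p = 0.468). Impad1, a phosphatase that clears the by-product of sulfation, gave 0.43 (SE 0.18, adjusted p = 0.671).

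Remodelling and turnover genes were tested for 14 of 16, 10 positive and 4 negative, with a median of 0.29. Mmp7, the matrix metalloproteinase of Paneth cell granules, with 11.5% of its exon bases shared with AV064505 on the opposite strand, was at 2624 ± 895.9 CPM (SD, n = 4) in controls and 2465 ± 1378 CPM (SD, n = 4) in knockouts. Ids, a lysosomal enzyme that removes sulfate from the chains, gave -0.72 (SE 0.25, adjusted p = 0.537), and the membrane protease Adam10 gave 0.67 (SE 0.29, adjusted p = 0.671). Sulf2, an extracellular enzyme that removes sulfate from the chains, had the highest fitted value of the 55 genes, 1.67 (SE 0.77, adjusted p = 0.729). It was at 0.589 ± 0.577 CPM (SD, n = 4) in controls and 1.87 ± 1.49 CPM (SD, n = 4) in knockouts with overlapping groups, and was chosen after its values were seen. Of its exon bases 2.6% are shared with Ncoa3 on the opposite strand, which had 25 to 95 counts. Of 13 chondroitin sulfate proteoglycans none passed the filter on low counts, and they summed to 2.51 to 6.35 CPM in controls and 2.73 to 4.82 CPM in knockouts.

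**Figure D4:**
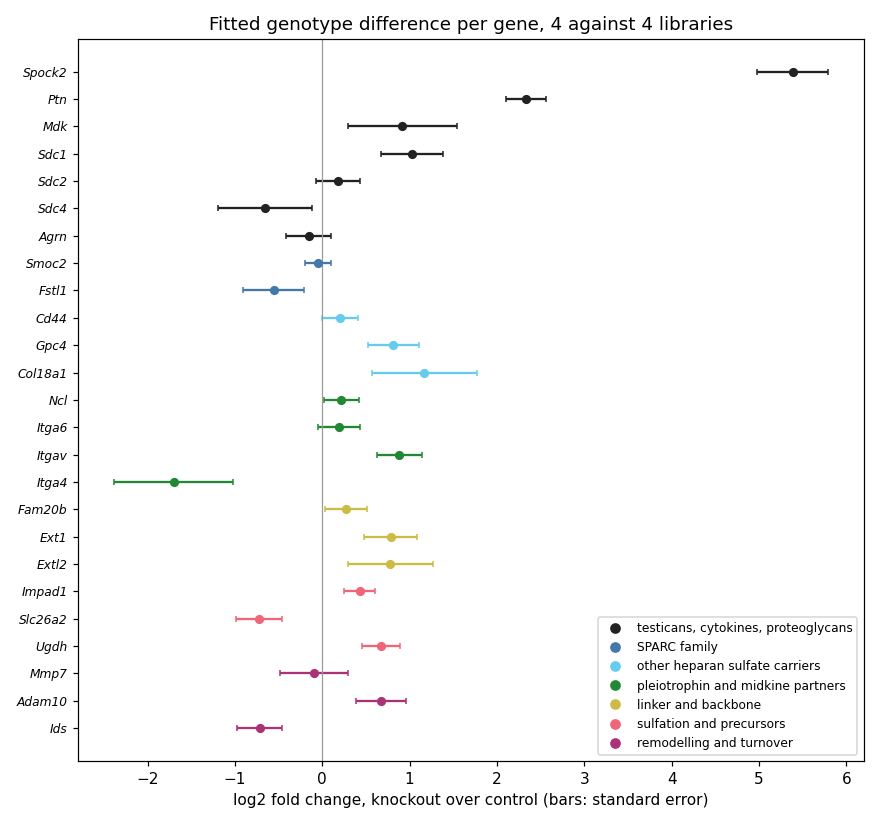
Fitted log2 fold change, knockout over control, (x axis, linear) with bars of 1 standard error for the 7 tested genes of the set (black) and 18 genes of the role lists (colours). Spock2 is at 5.39 and Ptn at 2.33, and the 18 plotted role-list genes lie between -1.70 and 1.17.

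Markers of other cells were summed in each library beside these genes. The 12 markers of stromal cells, which are known to make pleiotrophin, summed to 1.42 to 2.14 CPM in controls and 1.18 to 2.31 CPM in knockouts, and none passed the filter. Of 8 glial and neuronal markers, with Sox10 at 0 in every library, the sum was 4.76 to 9.33 CPM in controls and 3.88 to 7.89 CPM in knockouts. Endothelial markers summed to 9.52 to 10.7 CPM and 6.93 to 9.45 CPM, and immune markers to 8.62 to 31.0 CPM and 7.76 to 25.5 CPM. The knockouts' lowest and highest sums were below the controls' in 3 of these 4 lists.

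Of the 10 enteroendocrine markers all had negative values and none passed both limits by edgeR's quasi-likelihood test. At an unadjusted p under 0.05 there were 7 of the 10, beside 2.53% of all tested genes that were lower at that limit, and 1, Neurod1, passed a false discovery rate of 10% with a log2 fold change of -2.27 (adjusted p = 0.0629). Their sums overlapped, at 425.1 to 1564 CPM in controls and 45.54 to 1850 CPM in knockouts. Tuft markers summed to 115.5 to 328.6 CPM in controls and 57.93 to 216.7 CPM in knockouts, and all 5 tested had negative values, 1 of them at an unadjusted p under 0.05. Enterocyte markers summed to 104.8 to 289.6 CPM and 30.31 to 201.3 CPM, with 3 of 5 tested lower at that limit. Goblet markers summed to 9263 to 17750 CPM and 7871 to 18980 CPM, with 2 of 8 lower. Stem cell markers summed to 707.8 to 1513 CPM and 279.1 to 954.8 CPM, with 3 of 7 lower and 1, Rnf43, higher at that limit. The stem cell sum was mostly Olfm4, at a mean of 873.6 CPM in controls and 404.9 CPM in knockouts, whereas Lgr5 had a log2 fold change of 0.04. None of these 4 lists had a gene that passed both limits or a false discovery rate of 10%, by the same test. The part of these cell types, the stromal, glial, endothelial and immune lists included, in the levels of Spock2 and Ptn was not tested.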

How the data were processed

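RNA of sorted Paneth cells from 4 β-cat GOF; Mll1+/- and 4 β-cat GOF; Mll1-/- mice was measured by Smart-seq2. The methods describe small pools of cells sorted into tubes, so low counts can rest on few cells. The authors aligned reads with GSNAP to mm10, and the deposited values are raw counts per gene of uniquely mapped reads (featureCounts 1.6.3, after bcl2fastq 2.19.1, Ensembl annotation). Strand setting is not given in the sources used here. PCR reads without molecular identifiers are not independent molecules.

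The 92 spike-in rows were left out. Counts were fitted with edgeR 4.0.16 (R 4.3.3) by the quasi-likelihood test with TMM factors and filterByExpr (minimum count 10, total 15), and p-values were adjusted by Benjamini-Hochberg over 13439 genes. Calls needed both an adjusted p up to 0.05 and an absolute log2 fold change from 0.5 upwards. The script was tested on simulated data. DESeq2 1.42.0, limma 3.58.1, other scalings and filters, and leaving out each library were alternatives. At these depths 3 counts equal 0.172 to 0.352 CPM. No 2 libraries agreed within sampling noise (chi-square per degree of freedom 12.1 or more). The lowest value was that of knockouts 1 and 2, and the next was 37.1, for controls 2 and 3.

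Groups follow the Mll1 genotype that the labels give. Replicates were numbered in accession order, and an animal number that control 4 shares with knockout 4 in the labels paired nothing here. Members and lists were chosen with earlier results of these data known. Named genes are the 10 members, and in each list the 2 most abundant tested genes, the 2 with the smallest unadjusted p and any gene called, the 5 genes most like Spock2 and the 5 most like Ptn, and genes that overlap a member. Ptprz1, Sulf2 and the overlapping genes Cerkl, AV064505 and Ncoa3 were named outside this rule, after values were seen. The rule covers the role lists and not the marker lists. Neurod1, Rnf43, Olfm4, Lgr5, Sox10, Kmt2a and Epcam were therefore also named outside it. The study describes the samples of a genotype as independent mice.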

Additional observations from a re-analysis of the deposited data

Results flagged for a closer look

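In 3 of 19 groups of 4 libraries 1 library lay far from the rest by Dixon's ratio, the gap to the nearest other library over the range of the group. For values that follow a normal distribution, chance alone gives about 1 in 20. Low counts need not follow it, so no excess is read from the 3 groups. Spock1 was at 1.456 CPM in knockout 4 and at 0 to 0.2349 in the other 3 knockouts, a ratio of 0.839. Mdk was at 4.871 CPM in knockout 1 and at 1.645 to 2.067 in the other 3, a ratio of 0.869. Hspg2 was at 1.379 CPM in control 1 and at 0.3946 to 0.4761 in the other 3 controls, a ratio of 0.917. Spock1 and Hspg2 rest on 24 and 22 counts in those libraries.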

How the results depend on the processing

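The log2 fold changes were 5.17 to 5.83 for Spock2 (17 settings) and 2.09 to 2.46 for Ptn (18 settings), and both genes were called in each. Since the genes were chosen on this contrast in the same libraries, these calls are no support of their own. With at least 10 counts required in every library 1 member, Ptn, was called, since Spock2 was removed by the filter. No gene of the role lists was called in any of the 18. Agrn was at -0.36 to 0.01, positive only with limma-voom. Called genes between genotypes numbered 290 with no filter, 13 with at least 10 counts in every library, 138 by DESeq2's Wald test, 101 by limma-voom, 10 with a Y-linked covariate and 38 at a false discovery rate of 10%, against 25. Leaving out 1 library gave 10 to 152, the highest without knockout 3. The Y-linked covariate, taken from the summed level of Y-linked genes, stands in for sex, which the labels do not give. It gave Ptn its lowest value, and the study used both females and males. Between library sets, DESeq2's Wald test called 187 genes and 1 member against 13 and 0, and leaving out 1 library gave 0 to 57 genes, the highest without knockout 3. Of the 5 genes most like Spock2, 3 were kept with 0.25 added before the log, 0 with Spearman's rho and 1 to 4 without 1 library. For Ptn it was 0 with Spearman's rho and 2 to 4 without 1 library. The cause was not tested. No paired analysis was possible because replicate numbers are only names in accession order and no source used here says which control and knockout were littermates. With library set as a block 24 genes and the same 2 members were called. Low counts limit Spock1, Gpc1 and Hspg2, which were tested only with no filter. There their log2 fold changes were 0.44, 3.39 and 0.01, and none was called.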
